A study of Mus musculus with 15 samples.

Results

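The 10 genes described here are the glucocorticoid receptor Nr3c1, the mineralocorticoid receptor Nr3c2, the steroid-activating enzyme gene Hsd11b1 and 7 genes known to be induced by the synthetic glucocorticoid dexamethasone: Fkbp5, Tsc22d3, Per1, Zbtb16, Sgk1, Dusp1 and Errfi1. They were chosen by name, as the receptor and known targets, with earlier results of these data known. All 10 were found among the 26301 genes counted by RNA-seq and passed the filter on low counts. The cells were 3T3-L1, a mouse preadipocyte line that turns into fat cells when given an inducing mixture. The libraries were made from polyadenylated RNA on day 2 of induction, in 5 groups of 3 libraries each, to ask what loss and re-expression of JMJD1A, a histone H3K9 demethylase encoded by Kdm3a (Jmjd1a), does to gene expression.

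Control (sh-Empty) cells carried a retroviral vector with no hairpin, and JMJD1A-KD (sh-Jmjd1a) cells carried a hairpin against Jmjd1a. The other groups were sh-Jmjd1a cells that also expressed LacZ as the control, wild-type JMJD1A (WT), or the iron-binding mutant JMJD1A(H1122A) (Mut). Each is a drug-selected population of 1 cell line infected with pMXs-based retrovirus, and the labels do not say that the 3 libraries of a group came from separate infections or cultures, so the spread between them may be technical. All 15 libraries came from cells given dexamethasone at 1 uM, with insulin at 1.67 uM and the phosphodiesterase inhibitor IBMX at 115 ug/mL. No group lacked dexamethasone, so a level here is a level in its presence and shows no response to it. A group with fewer cells that express a gene cannot be told apart from a group with less RNA of it per cell.

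As background, glucocorticoids enter the cell and bind the receptor, which is held ready by HSP90 and its partner proteins. The bound receptor moves to the nucleus and binds short palindromic DNA elements, where it raises the transcription of some genes, and it also dampens inflammatory genes. Dexamethasone is part of the standard mixture for inducing 3T3-L1 cells, and IBMX raises cAMP, which acts through CREB on a different DNA element, the CRE.

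The letters of these elements near the 10 genes are shown because both hormone and IBMX were present in every group. Motifs were searched as AGAACA and TGTTCT parted by 3 bases of any kind (the full palindrome), as GNACA and TGTNC parted by 3 bases (its core, which lies inside the full palindrome), and as TGACGTCA (the CRE). Each equals its own reverse complement, so 1 search covers both strands. Coordinates are on mm9, the sequences are given 5′ to 3′ on the strand of the gene, the motif is in capitals, and 10 bases of context stand on each side.

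Sgk1 palindrome, chr10:21713497-21713531, plus strand: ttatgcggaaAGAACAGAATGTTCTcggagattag
Per1 core, chr11:68910569-68910601, plus strand: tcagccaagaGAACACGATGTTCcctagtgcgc
Dusp1 core, chr17:26646422-26646454, minus strand: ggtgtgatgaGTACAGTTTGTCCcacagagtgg
Fkbp5 core, chr17:28655115-28655147, minus strand: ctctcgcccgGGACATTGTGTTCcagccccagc
Fkbp5 core, chr17:28655967-28655999, minus strand: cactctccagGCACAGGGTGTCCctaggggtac
Dusp1 CRE, chr17:26645543-26645570, minus strand: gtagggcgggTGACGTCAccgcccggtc
Errfi1 CRE, chr4:150229118-150229145, plus strand: ctgcgggcgtTGACGTCAcgttgtcgct
Per1 CRE, chr11:68910694-68910721, plus strand: gcctccgcttTGACGTCAcctccctctc
Zbtb16 CRE, chr9:48634568-48634595, minus strand: ccatcttcctTGACGTCAgttctaaagg

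Counting from the start of transcription, with negative positions before it, the Sgk1 palindrome begins at -189 from the nearest annotated start. It lies in the RefSeq promoter of Sgk1 (GRCm38.p6), and of 32851 such windows of 300 bases, 3 (0.00913%) held the full palindrome. The Dusp1 CRE begins at -96 from its gene start, and the Errfi1 CRE at -54 from an annotated start. The CRE was held by 1.79% of the RefSeq promoters. RefSeq promoters were found for 8 of the 10 genes.

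Within 10 kb of the gene start, Fkbp5 held 5 core matches, Per1 held 2, and Sgk1 and Dusp1 held 1 each. Of these core matches, only the ones closer to the gene start are printed above. The Sgk1 match counted here is not the printed palindrome, which lies 111517 bases after the outermost annotated start of that gene. At least 1 core match was this near to 28.6% of 22365 gene starts, so its letters alone are common. That share does not bear on several matches at the same gene. Counted from the gene start, the Per1 core and CRE both lie in an intron, the core beginning 1860 bases after that start. From the nearest annotated start the Per1 CRE begins at -1746. The Dusp1 core begins at -980, and the printed Fkbp5 matches at -668 and -1520. The Zbtb16 CRE is intronic, 9465 bases after the start. A CRE was this near to 13.6% of gene starts. For Nr3c1, Nr3c2, Tsc22d3 and Hsd11b1 none of these letters occurred in the window, which says nothing of elements with other letters or farther away. The window was centred on the outermost annotated start. These genes have 8, 7, 6 and 6 annotated starts, and those that lie outside the window were not covered by it.

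Total counts per library ranged from 11437058 to 25523148 with a median of 12916162. Kdm3a itself was 177 ± 7.31 CPM (counts scaled to library size, mean ± SD, n = 3) in sh-Empty and 132 ± 5.77 in sh-Jmjd1a, a log2 fold change of -0.42 (SE 0.05, adjusted p = 2.91e-08). With the transgenes it reached 1690 ± 69.0 in WT and 2197 ± 92.2 in Mut, against 119 ± 2.62 with LacZ. The Mut cells thus held more Kdm3a RNA than the WT cells, by 0.38 on the log2 scale (adjusted p = 3.94e-12). CPM were scaled by TMM within the knockdown set (sh-Empty and sh-Jmjd1a) and within the rescue set (LacZ, WT and Mut), so levels are compared within a set. Adjusted p-values here and below come from the quasi-likelihood test of edgeR, adjusted by the Benjamini-Hochberg method over all genes tested, and a gene is said to be higher or lower in a group only at an adjusted p under 0.05.

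Levels between genes were compared as CPM per kb of exon. In sh-Empty cells Fkbp5 stood highest on this scale at 199 ± 6.31, followed by Tsc22d3 at 102 ± 3.45 and Errfi1 at 97.0 ± 3.09, whose libraries overlapped. Dusp1 was at 41.2 ± 2.08. Per1 at 18 ± 0.99, Nr3c1 at 17.3 ± 0.14 and Sgk1 at 17.2 ± 1.43 could not be ordered beyond their spread, and the libraries of Hsd11b1 at 16 ± 1.19 overlapped those of Sgk1 and Per1. Zbtb16 followed at 4.75 ± 0.14 and Nr3c2 was lowest at 1.36 ± 0.13.

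**Figure D1:**
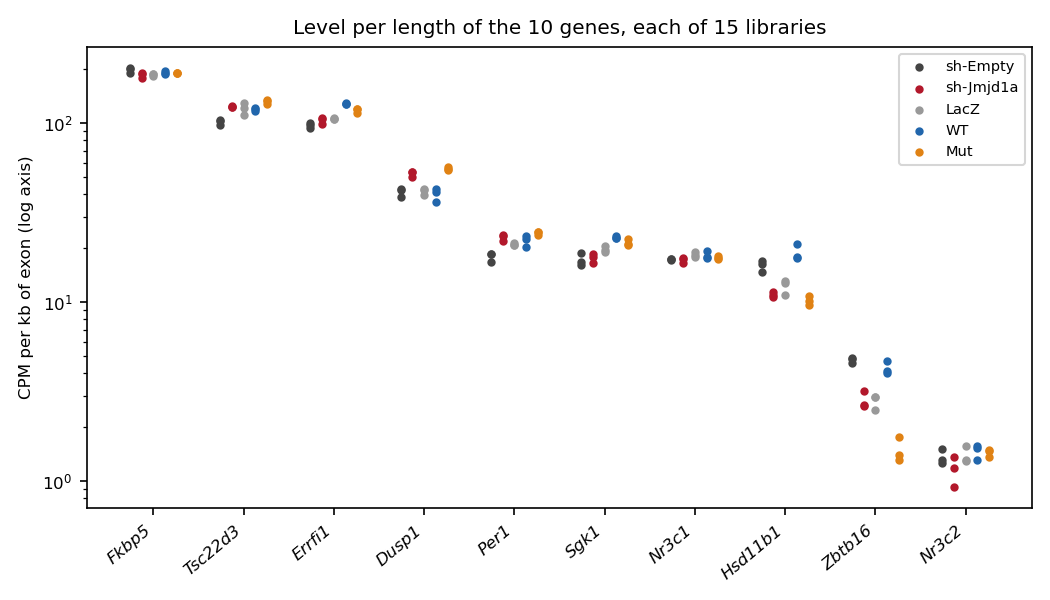
Level per length (CPM per kb of exon, log axis) of the 10 genes in each of the 15 libraries, ordered by the mean over all libraries, with colours for the 5 groups. Fkbp5 stands highest and Nr3c2 lowest, with Zbtb16 the gene whose groups spread most widely.

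In the knockdown, 3 of the 10 genes were higher (Dusp1, Per1 and Tsc22d3), where 22.3% of the 12272 genes tested were higher, and 3 were lower (Zbtb16, Hsd11b1 and Fkbp5), where 23.9% were lower. The libraries of the groups did not overlap for these 6 genes, as for 53% of all genes. In WT against LacZ, 4 were higher (Hsd11b1, Zbtb16, Errfi1 and Sgk1; 4.98% of 12557 genes tested) and 0 were lower (4.52%). For that 0, the count was also 0 at an unadjusted p under 0.05 and by DESeq2. There 5 of the 10 did not overlap, against 22.9% of all genes.

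In Mut against WT, 3 were higher (Dusp1, Tsc22d3 and Per1; 12.1% of all genes) and 3 were lower (Zbtb16, Hsd11b1 and Errfi1; 11.7%), and 7 did not overlap (37.1%). In Mut against LacZ, 4 were higher (Dusp1, Per1, Errfi1 and Tsc22d3; 4.78%) and 1 was lower (Zbtb16; 4.46%), and 7 did not overlap (25.1%). The median log2 fold change of the 10 was 0.02 in the knockdown, 0.09 in WT against LacZ, -0.04 in Mut against WT and 0.09 in Mut against LacZ, beside medians over all genes of -0.0032, -0.00014, -0.0012 and 0.00052. The 3 rescue comparisons share libraries and are not independent of each other, while the knockdown shares none with them.

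**Figure D2:**
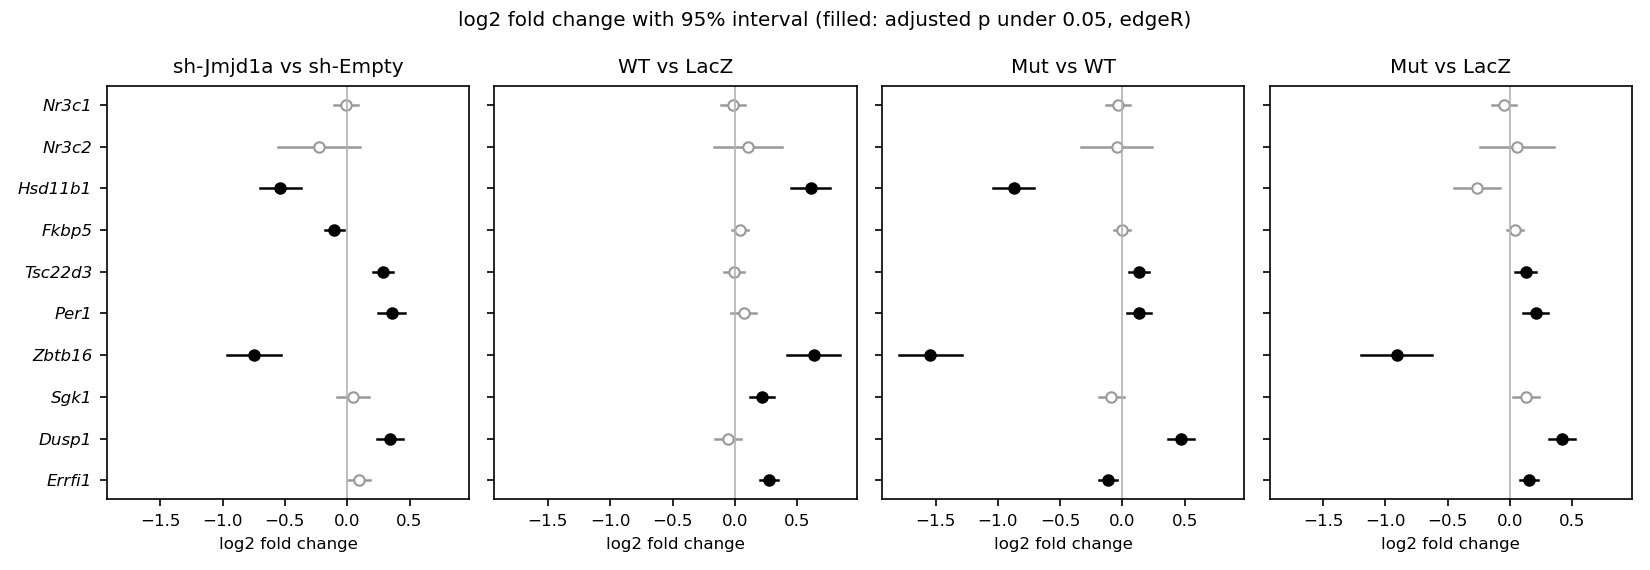
log2 fold change of each of the 10 genes (points) with its 95% interval (bars) in the 4 comparisons, filled where the adjusted p was under 0.05. Zbtb16 and Hsd11b1 lie left of 0 in the knockdown and in Mut against WT and right of 0 in WT against LacZ, and Nr3c1 and Nr3c2 are open in all 4.

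Neither receptor passed the test in any comparison. Nr3c1 encodes the glucocorticoid receptor itself. It was at 127, 129 and 129 CPM in the sh-Empty libraries and at 123, 130 and 129 in sh-Jmjd1a. It was at 141, 132 and 135 with LacZ, at 143, 130 and 132 with WT, and at 131, 134 and 130 with Mut. The groups overlapped in every comparison. The knockdown log2 fold change was -0.01, with a 95% interval from -0.11 to 0.09 (adjusted p = 0.868). The interval was -0.11 to 0.08 in WT against LacZ, -0.13 to 0.06 in Mut against WT, and -0.14 to 0.05 in Mut against LacZ. Among 9984 genes with at least 5 CPM, those nearest to Nr3c1 in log2 fold change over the knockdown, WT against LacZ and Mut against LacZ were Rnf220, Twf1 and Golga7, with root mean square differences of 0.0097, 0.011 and 0.011 over the 3 comparisons. These differences are smaller than the SE of the Nr3c1 log2 fold change, 0.05 in each of the 3. The ranking therefore does not set these genes apart from other genes that barely changed.

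Nr3c2 encodes the mineralocorticoid receptor, which also binds glucocorticoids. Its levels were 9.78, 8.45 and 8.16 CPM in sh-Empty and 8.81, 5.97 and 7.69 in sh-Jmjd1a, and the groups overlapped. With LacZ they were 8.40, 8.43 and 10.2, with WT 9.92, 8.52 and 10.1, and with Mut 9.47, 9.70 and 8.83. The knockdown log2 fold change was -0.23 (SE 0.16, adjusted p = 0.268) and no comparison passed the test. As few as 74 reads stood behind a library's value, so its interval was wide. An exon of Nr3c2 overlaps Gm10649 on the opposite strand, and with the strand setting of the counting not given, reads of the pair cannot be told apart.

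Hsd11b1 encodes the enzyme that turns inactive cortisone-type steroids back into active glucocorticoid, and it is known to rise as preadipocytes become fat cells. It was at 45.8, 44.3 and 39.6 CPM in sh-Empty and lower in all sh-Jmjd1a libraries, at 30.7, 29.5 and 28.8. The log2 fold change was -0.54 (SE 0.08, adjusted p = 2.19e-06). With LacZ it was at 34.6, 29.5 and 35.6, and with WT at 47.9, 57.3 and 48.2, a rise of 0.61 (SE 0.08, adjusted p = 8.34e-08). With Mut it was at 26.2, 29.4 and 27.3, below every WT library (-0.87, SE 0.08, adjusted p = 1.31e-11). The Mut libraries also lay below the LacZ libraries, but that difference of -0.26 missed the threshold (adjusted p = 0.0571). Without LacZ replicate 2 it passed, at -0.34 (adjusted p = 0.0193), and without WT replicate 2 at -0.26 (adjusted p = 0.037). The study chose its own JMJD1A target genes partly from these RNA comparisons, and Hsd11b1 is among them. Its pattern here is therefore not independent of that list.

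H6pd, the enzyme that supplies Hsd11b1 with its NADPH cofactor in the endoplasmic reticulum, was at 145 ± 2.09 CPM in sh-Empty and 111 ± 3.37 in sh-Jmjd1a (-0.39, adjusted p = 1.28e-07). It was at 115 ± 3.70 with LacZ, 162 ± 3.84 with WT and 104 ± 3.78 with Mut. It rose in WT against LacZ by 0.49 (adjusted p = 2.48e-11) and was lower in Mut than WT, at -0.64 (adjusted p = 7.69e-15). Both genes of the activating pair were thus lower in the knockdown, higher with WT than with LacZ, and lower with Mut than with WT. H6pd belongs to a list of 10 genes of glucocorticoid metabolism and transport, of which 6 were tested. In the knockdown 2 of the 6 were higher (22.3% of all genes tested), and H6pd alone was lower (23.9%). The higher 2 were Akr1c14 (1.23, adjusted p = 2.25e-05) and the efflux pump gene Abcb1b (1.22, adjusted p = 1.19e-06).

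Zbtb16 encodes PLZF, a zinc finger transcription factor strongly induced by glucocorticoids in many cell types. Its levels were 24.7, 23.4 and 24.6 CPM in sh-Empty and 13.6, 13.3 and 16.2 in sh-Jmjd1a, with no overlap (-0.75, SE 0.10, adjusted p = 8.72e-07). With LacZ they were 15.1, 15.1 and 12.7, and with WT 20.5, 21.1 and 23.8, higher by 0.63 (SE 0.11, adjusted p = 2.12e-05). With Mut they were 8.93, 7.14 and 6.68. Every Mut library lay below every LacZ library and every WT library, with log2 fold changes of -0.91 (SE 0.14, adjusted p = 1.02e-05) and -1.54 (SE 0.13, adjusted p = 1.72e-13). The fewest reads in a Mut library were 78. Its calls were kept under every alternative run.

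**Figure D3:**
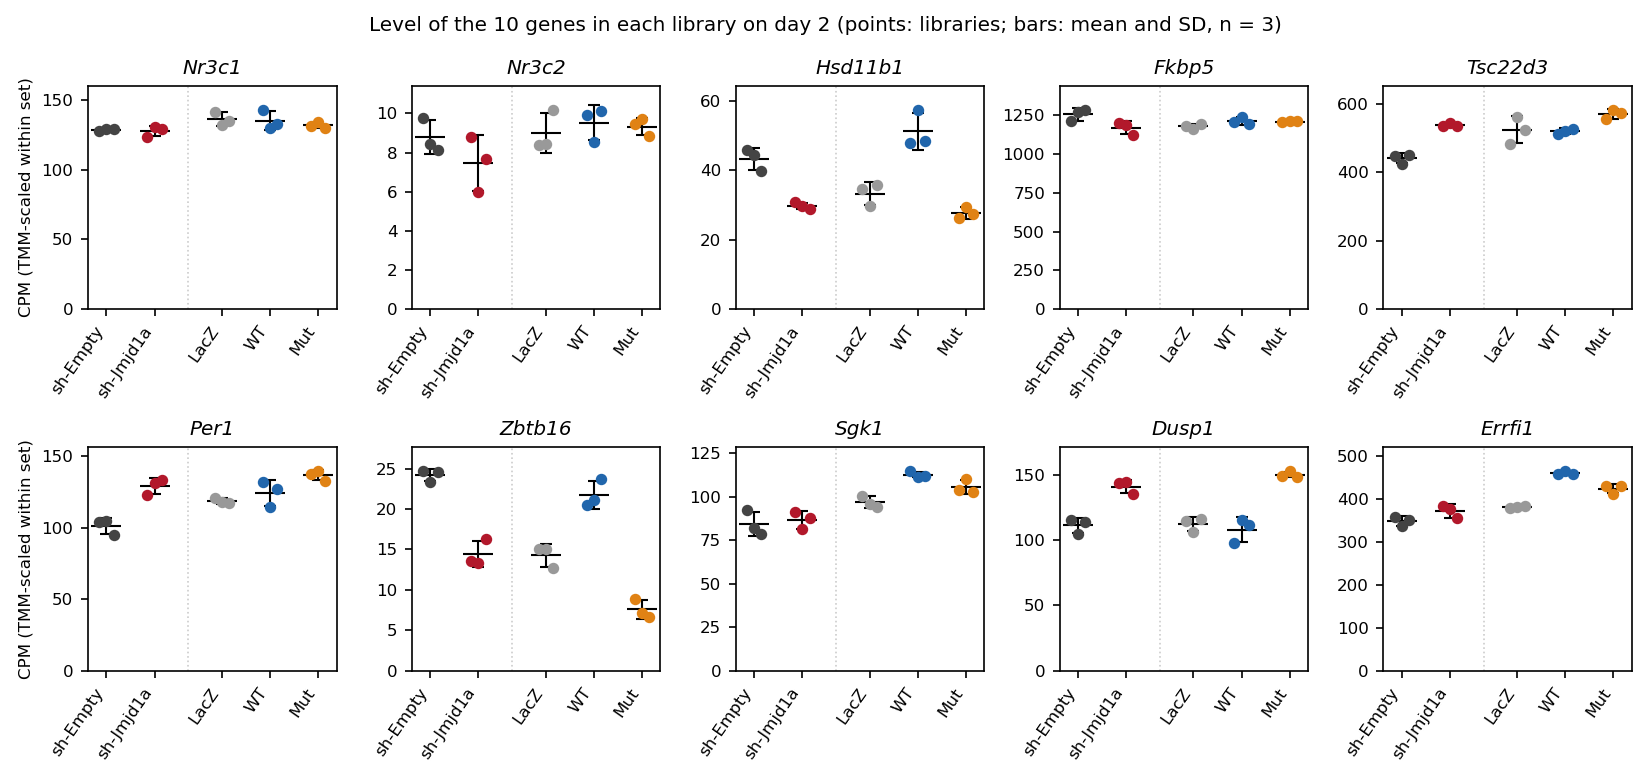
Level of the 10 genes in CPM (linear axes from 0) in each library of the 5 groups, with the mean and SD of the 3 libraries as bars; the dotted line parts the separately scaled sets. Zbtb16 and Hsd11b1 are low in sh-Jmjd1a, LacZ and Mut and high in sh-Empty and WT, Dusp1 is high in sh-Jmjd1a and Mut, and the Nr3c1 groups overlap.

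Dusp1, Per1 and Tsc22d3 went the other way in the knockdown. Dusp1 encodes a phosphatase that switches off MAP kinases. It was at 115, 105 and 113 CPM in sh-Empty and at 143, 144 and 135 in sh-Jmjd1a, a rise of 0.34 (SE 0.05, adjusted p = 2.57e-06). With LacZ it was at 114, 106 and 116 and with WT at 97.4, 115 and 111, and these groups overlapped (-0.05, adjusted p = 0.644). With Mut it was at 149, 152 and 148, above every LacZ and WT library. The rise was 0.42 over LacZ (SE 0.05, adjusted p = 8.48e-08) and 0.47 over WT (SE 0.05, adjusted p = 6.86e-10), and both calls were kept under every alternative run.

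Per1 encodes a repressor of the circadian clock. It was at 104, 105 and 94.8 CPM in sh-Empty and at 123, 132 and 133 in sh-Jmjd1a, a rise of 0.36 without overlap (SE 0.05, adjusted p = 2.71e-06). With LacZ it was at 121, 118 and 117, with WT at 132, 115 and 127, and with Mut at 138, 139 and 133. WT overlapped LacZ (0.07, adjusted p = 0.456), and Mut lay above LacZ by 0.20 (SE 0.05, adjusted p = 0.00509). Mut against WT gave 0.13 (adjusted p = 0.0444). That last call was lost without any of LacZ replicate 3, Mut replicate 1 or 2, or WT replicate 2 or 3, at log2 fold changes of 0.13, 0.13, 0.12, 0.08 and 0.15, and under DESeq2 (adjusted p = 0.0765).

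Tsc22d3 encodes GILZ, a leucine zipper protein that carries part of the anti-inflammatory action of glucocorticoids. It was at 448, 424 and 451 CPM in sh-Empty and at 534, 543 and 536 in sh-Jmjd1a, higher in every library (0.29, SE 0.04, adjusted p = 5.28e-07). With LacZ it was at 483, 562 and 525, a wide spread, and with WT at 510, 521 and 527. With Mut it was at 555, 582 and 574, above every WT library but overlapping LacZ. WT against LacZ gave -0.01 (adjusted p = 0.932), and Mut was higher than WT by 0.13 (SE 0.04, adjusted p = 0.0106). Without Mut replicate 2 or WT replicate 1 this missed the threshold, at 0.12 in both cases (adjusted p = 0.0607 and 0.0581). Mut against LacZ gave 0.12 (adjusted p = 0.0413), and that call was lost without any of LacZ replicates 1 and 3, Mut replicates 1, 2 and 3 and WT replicates 1 and 3, at values from 0.07 to 0.14, under DESeq2 (adjusted p = 0.0629), and with only the Mut and LacZ libraries fitted (adjusted p = 0.0542).

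Errfi1 and Sgk1 were higher with WT than with LacZ. Errfi1 encodes MIG6, an inhibitor of the EGF receptor. It was at 357, 335 and 350 CPM in sh-Empty and at 384, 376 and 354 in sh-Jmjd1a, which overlapped (0.10, adjusted p = 0.0638). Without sh-Jmjd1a replicate 3 that difference passed, at 0.14 (adjusted p = 0.000824). With LacZ it was at 377, 380 and 382, with WT at 456, 463 and 458, and with Mut at 429, 410 and 428. Mut thus stood between the other groups, with no overlap. WT against LacZ gave 0.27 (SE 0.04, adjusted p = 1.45e-07), and Mut against LacZ 0.15 (adjusted p = 0.00343). Mut against WT gave -0.12 (adjusted p = 0.0108), which without Mut replicate 2 was -0.10 (adjusted p = 0.0847).

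Sgk1, a kinase that regulates ion channels and transporters, carries the palindrome printed above. It was at 92.1, 81.7 and 78.7 CPM in sh-Empty and at 91.3, 81.2 and 87.7 in sh-Jmjd1a, overlapping throughout (0.05, 95% interval -0.08 to 0.18, adjusted p = 0.565). With LacZ it was at 100, 96.0 and 93.9, with WT at 114, 111 and 112 and with Mut at 104, 110 and 103. The rise with WT was 0.22 (SE 0.05, adjusted p = 0.00172). The Mut libraries lay between the other groups without overlap, but neither difference passed (-0.09 from WT, adjusted p = 0.196, and 0.13 from LacZ, adjusted p = 0.123).

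Fkbp5 encodes an HSP90 co-chaperone that lowers the receptor's affinity for hormone and is a classical readout of glucocorticoid action. It was at 1210, 1272 and 1284 CPM in sh-Empty and at 1199, 1187 and 1123 in sh-Jmjd1a, lower at a log2 fold change of -0.10 (SE 0.04, adjusted p = 0.0244). The call was lost without sh-Empty replicate 2 or 3 (-0.09 in both) or sh-Jmjd1a replicate 3 (-0.07), and under DESeq2 (adjusted p = 0.0511). In the rescue set it was at 1184, 1163 and 1192 with LacZ, at 1204, 1240 and 1194 with WT, and at 1207, 1211 and 1211 with Mut. No rescue comparison passed, and the 95% intervals there were -0.03 to 0.11 for WT against LacZ, -0.08 to 0.07 for Mut against WT and -0.03 to 0.11 for Mut against LacZ.

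RNA of the proteins that hold and assist the receptor was examined as a list of 20 genes of chaperones and coregulators, all of them tested. In the knockdown 3 were higher (22.3% of all genes tested) and 10 lower (23.9%), with a median log2 fold change of -0.13 against -0.0032 over all genes. The other 7 were not called, Hsp90aa1 among them (-0.05, adjusted p = 0.352). The coactivator genes Ncoa3 and Ncoa1 went opposite ways, at 0.41 (adjusted p = 3.39e-06) and -0.63 (adjusted p = 2.01e-10). The chaperone genes Hspa4 and Hsp90ab1 fell by 0.55 (adjusted p = 8.04e-12) and 0.20 (adjusted p = 2.01e-05) on the log2 scale. In WT against LacZ 1 of the 20 was higher (Ncoa1, 0.22, adjusted p = 0.00958) and 1 lower (Hsp90ab1, -0.09, adjusted p = 0.048). In Mut against WT and in Mut against LacZ, 1 was higher (Ncoa3) and 2 were lower (Ncoa1 and Hspa4). For this list and the 2 that follow, the shares of all genes called higher and lower were 4.98% and 4.52% in WT against LacZ. They were 12.1% and 11.7% in Mut against WT, and 4.78% and 4.46% in Mut against LacZ.

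A list of 40 other genes known to be induced by glucocorticoids moved both ways, as the 10 did. In the knockdown 11 of the 35 tested were higher (22.3% of all genes) and 15 lower (23.9%), with a median of -0.04 against -0.0032 over all genes. Anxa1, an anti-inflammatory phospholipid-binding protein, rose from 142 ± 2.24 to 242 ± 9.89 CPM (0.77, adjusted p = 2.8e-14), and Pdk4, which restrains glucose oxidation, from 114 ± 3.40 to 186 ± 5.93 (0.70, adjusted p = 6.5e-13). The transcription factor gene Klf15 and the transglutaminase gene Tgm2 fell, by 2.14 (adjusted p = 0.00039) and 2.28 (adjusted p = 5.81e-06), from low levels of 1.72 ± 0.33 and 3.56 ± 0.66 CPM. Tgm2 is among the target genes that the study chose partly from these RNA comparisons, so its pattern is not independent of that list. In WT against LacZ 8 of 36 were higher, Klf15 (1.29, adjusted p = 0.0245) and Tgm2 (1.13, adjusted p = 0.0125) among them, and 4 were lower, with Fam107a at -0.45 (adjusted p = 1.64e-10) and Cebpd at -0.19 (adjusted p = 0.0317).

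In Mut against WT 11 of the 36 were higher and 9 lower. Fam107a was higher by 0.81 (adjusted p = 2.68e-19) and Mertk, a receptor for the uptake of dead cells, by 0.52 (adjusted p = 2.23e-07), while Klf15 and Tgm2 were lower at -3.11 (adjusted p = 2.43e-05) and -2.29 (adjusted p = 1.57e-05). In Mut against LacZ 9 were higher, including Mertk and Arrdc2, and 2 were lower. Those 2 were Ccnd2, a cyclin of the early cell cycle, at -0.38 (adjusted p = 2.49e-10), and the metallothionein gene Mt2 at -0.35 (adjusted p = 4.12e-05).

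Of 22 inflammatory genes known to be repressed by glucocorticoids, 14 were expressed enough to test. In the knockdown 7 were higher (22.3% of all genes) and 2 lower (23.9%), with a median of 0.59 against -0.0032 over all genes. Ptgs2, the inducible cyclooxygenase, rose from 2.48 ± 0.57 to 12 ± 1.22 CPM (2.31, adjusted p = 5.43e-11), and the cytokine gene Lif rose by 1.34 (adjusted p = 0.00284). Mmp9 fell by 2.87 (adjusted p = 2.38e-07) and the chemokine gene Cxcl12 by 0.20 (adjusted p = 1.88e-05). In WT against LacZ 1 was higher (Mmp9, 1.50, adjusted p = 0.0495) and 1 lower (Cxcl12, -0.22, adjusted p = 1.25e-06). The Mmp9 call rested on 3 to 9 reads per library with LacZ and 6 to 38 with WT, and these groups overlapped. Ptgs2 stood at 9.85 ± 1.67 with LacZ and 8.77 ± 0.41 with WT, a difference of -0.16 that did not pass (adjusted p = 0.6). In Mut against WT, 2 of the 14 were higher (Mmp3 and Cxcl12) and 1 was lower (Vcam1), and in Mut against LacZ 1 was called (Csf1, 0.19, adjusted p = 0.0265).

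Markers of fat cell differentiation moved with Zbtb16 and Hsd11b1. All 10 adipocyte markers were lower in the knockdown (23.9% of all genes) and higher in WT against LacZ (4.98%). All 10 were also lower in Mut against WT (11.7%), and 9 were lower in Mut against LacZ (4.46%). Their median log2 fold changes were -2.12, 0.84, -1.76 and -1.06 in these comparisons. Their summed level was 5272 to 5356 CPM in sh-Empty, 2683 to 2828 in sh-Jmjd1a, 3398 to 3473 with LacZ, 3905 to 4269 with WT and 2608 to 2717 with Mut, and no marker was at 0 in a whole group. Most of each sum was Lpl. Adipoq, the adiponectin gene, went from 53.1 ± 4.74 to 5.21 ± 0.27 CPM in the knockdown, and from 21.2 ± 1.99 with WT to 3.60 ± 0.48 with Mut. The order of the summed level over the groups of a set was that of the mean levels of Zbtb16 and Hsd11b1. For Hsd11b1 the difference between Mut and LacZ missed the threshold. The part of differentiation in the results of the 2 genes was not tested. Of the adipocyte markers, Fabp4, Cidec, Pparg, Retn and Cebpa are among the target genes that the study chose partly from these RNA comparisons. The pattern of these markers here is therefore not independent of that list.

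Of the 9 preadipocyte and fibroblast markers tested in the knockdown, 7 were higher (22.3% of all genes) and 1 lower (23.9%). The lower 1 was Dlk1, the preadipocyte marker Pref-1, at 853 ± 29.3 CPM in sh-Empty and 505 ± 27.4 in sh-Jmjd1a. Their summed level was 21302 to 21671 CPM in sh-Empty and 32609 to 33581 in sh-Jmjd1a, and overlapped among the rescue groups, from 37478 to 39836, with Fn1 the largest part. Of the 10 tested there, 3 were higher (4.98% of all genes) and 1 lower (4.52%) in WT against LacZ. In Mut against WT 4 were higher (12.1%) and 2 lower (11.7%), and in Mut against LacZ 4 were higher (4.78%) and 1 lower (4.46%). Dlk1 was at 0.43 (adjusted p = 6.89e-13), -0.96 (adjusted p = 5.92e-25) and -0.53 (adjusted p = 5.87e-15) in these 3 comparisons, and Thy1 was higher with Mut than with WT by 0.31 (adjusted p = 1.47e-06). Summed markers of macrophages stayed at or below 4.05 CPM in every library, with 1 or 2 of the 5 at 0 in each group, endothelial ones at or below 0.849 and epithelial ones at or below 0.778. Skeletal muscle markers summed to between 2.19 and 5.10 CPM except with WT, at 14.3 to 16.5, nearly all Des.

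**Figure D4:**
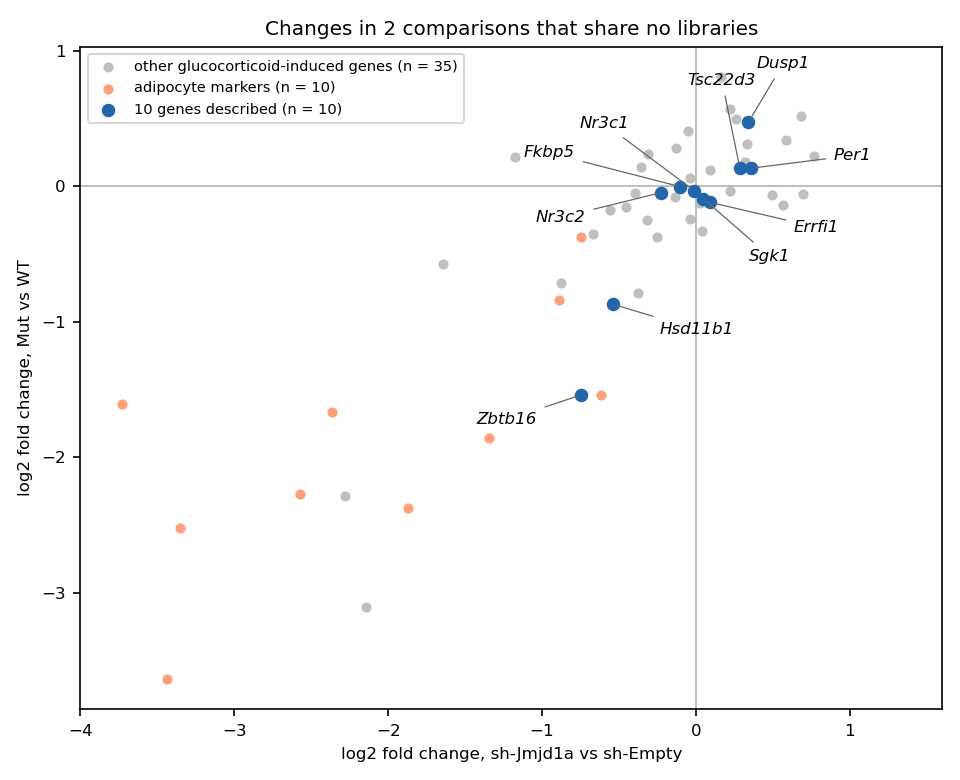
log2 fold change in sh-Jmjd1a against sh-Empty (horizontal) and in Mut against WT (vertical), comparisons that share no libraries, for the 10 genes (blue), the other glucocorticoid-induced genes tested in both (grey) and the adipocyte markers (orange). Zbtb16 and Hsd11b1 lie with the adipocyte markers at lower left, Dusp1, Per1 and Tsc22d3 at upper right, and the receptors near the centre.

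In gene position on mm9 the 10 are spread over 9 chromosomes. Fkbp5 (28536040 to 28654469, minus strand) and Dusp1 (26642535 to 26645464, minus strand) share chromosome 17. Zbtb16 spans 48462416 to 48644050 on chromosome 9, minus strand, from 1 annotated start. Hsd11b1 spans 195047824 to 195090248 on chromosome 1, minus strand, and Tsc22d3 137074067 to 137135198 on chromosome X, minus strand. Sgk1 spans 21601990 to 21719709 on chromosome 10 and Per1 68908719 to 68923462 on chromosome 11, both on the plus strand. Errfi1 spans 150228028 to 150243001 on chromosome 4 and Nr3c2 79423341 to 79768911 on chromosome 8, both on the plus strand.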

How the data were processed

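Libraries of polyadenylated RNA from 15 samples were analysed. The authors trimmed with fastp, aligned with HISAT2 to mm9 and deposited raw featureCounts counts per Entrez gene. The labels and the study's methods name different NEBNext kits, and the strand setting of the counting is not given. Symbols came from RefSeq (24191 of 26301 numbers matched) and coordinates and exon lengths from GENCODE M1 on mm9.

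The 10 genes and the other lists were chosen with earlier results of these data known. The knockdown set (6 libraries, 12272 genes) and the rescue set (9 libraries, 12557 genes) were fitted apart in edgeR 4.0.16 (R 4.3.3) with TMM, filterByExpr at a minimum count of 10, robust dispersions and the quasi-likelihood test, tested on simulated data, with Benjamini-Hochberg adjustment at 0.05. limma 3.58.1 and statmod 1.5.0 were used by it. The changes put into the simulated data were 2-fold, so smaller changes were not covered. Alternatives were DESeq2 1.42.0, other scaling, filters, dispersion methods, thresholds, sample sets, a replicate block and leaving out each library. Of other listed genes, up to the 2 largest called rises and 2 largest falls per list and comparison were named, and examples with several values were taken from these. Low counts limit precision, among the 10 genes most for Nr3c2 and Zbtb16, and more for listed genes such as Mmp9, Lif, Klf15 and Tgm2.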

Additional observations from a re-analysis of the deposited data

How the results depend on the processing

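Alternatives left most of the results that were rerun as given. Those were the counts of called genes, over all genes and among the 10, and the levels and log2 fold changes of the 10. Results for Kdm3a, for the other listed genes and for the counts and medians of lists were not rerun. At an adjusted p under 0.01, Mut against LacZ held 298 genes higher and 278 lower, WT against LacZ 307 lower, and Mut against WT 1 of the 10 genes higher. In Mut against LacZ 2 of the 10 were lower (Hsd11b1 added) with no filter, with the legacy method, with a replicate block and with only the groups compared. Between libraries with the same replicate number, the correlation of deviations was -0.04 to 0.03 in the knockdown set and -0.01 to 0.05 in the rescue set. Between libraries with different numbers it was -0.04 to 0.06 and -0.06 to 0.02, so any pairing by number was weak. With the block Fkbp5 in the knockdown was -0.10 (adjusted p = 0.0622) and Hsd11b1 in Mut against LacZ -0.27 (adjusted p = 0.0434). With a single library left out, Mut against LacZ held 348 to 651 genes higher (380 without LacZ replicate 3, 348 without Mut replicate 1), 326 to 605 lower (326 without Mut replicate 1) and 1 to 2 of the 10 lower (2 without LacZ replicate 2 or WT replicate 2), and Mut against WT 1 to 3 higher (1 without Mut replicate 2). Signs that turned belonged to differences near 0 that passed no test: Fkbp5 in Mut against WT was 0.0010 with all 15 libraries in 1 fit, and with a library left out the ranges were -0.025 to 0.011 (Nr3c1) and -0.0034 to 0.12 (Sgk1) in the knockdown, -0.055 to 0.012 (Nr3c1), -0.067 to 0.045 (Tsc22d3) and -0.093 to 0.0066 (Dusp1) in WT against LacZ, and -0.054 to 0.0079 (Nr3c1), -0.11 to 0.019 (Nr3c2) and -0.014 to 0.013 (Fkbp5) in Mut against WT. In the knockdown Errfi1 passed with relative log expression scaling (adjusted p = 0.0491) and with all libraries in 1 fit (adjusted p = 0.0201). The causes were not tested.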
